A study of Mus musculus with 4 samples.

Results

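Basement membranes and beaded filaments are built from collagens that do not form the banded fibrils of bone and tendon, and 8 genes for their chains were followed through a fracture callus and trabecular bone. They were Col4a1, Col4a2, Col6a1, Col6a2, Col6a3, Col8a1, Col15a1 and Col18a1, taken by gene symbol from the 32285 genes listed for every library, and all 8 were found. Single-cell RNA-Seq had been run on 4 libraries from male C57BL/6J mice that were 20 weeks old. The control groups received placebo and the GC groups received the glucocorticoid prednisolone at 6.25 mg/kg/d, and callus or trabecular bone was collected at week 2, with 1 library for each tissue and treatment. The labels describe slow-release pellets for all groups, whereas the study's methods give mice with fractures an injection each day and keep pellets for bone loss, so the route of the callus groups is uncertain. The number of mice pooled in a library is not given in the sources used here. With 1 library a group no comparison can be tested against the spread between mice. Every interval given is a 95% interval for counting error only, and library and treatment cannot be told apart.

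The chains of Col4a1 and Col4a2 assemble together into the type IV collagen network that underlies endothelium and surrounds pericytes and smooth muscle. Type XV (Col15a1) and type XVIII (Col18a1) collagens carry glycosaminoglycan side chains and sit in or next to basement membranes, and the C-terminal end of type XVIII is released as endostatin, an inhibitor of vessel growth. Type VI collagen (Col6a1, Col6a2, Col6a3) forms beaded filaments that lie close to the cell, above all in the pericellular matrix of cartilage, while type VIII (Col8a1) forms open lattices in vessel walls and other specialised membranes and is neither a classic basement membrane collagen nor a beaded filament.

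The libraries held 95852254 unique molecular identifiers (UMIs, each standing for 1 captured RNA molecule) in callus of controls and 64388215 in that of GC mice, and 41239842 and 45876714 in their trabecular bone. After filtering, 6683, 6890, 3747 and 4592 cells remained in the same order, with a median of 4192, 3336.5, 6369 and 5608.5 UMIs per cell. Any pair of libraries shared 6 to 10 cell barcodes. The matrix of GC callus listed 7762 barcodes, all with at least 500 UMIs, so free RNA could not be measured from barcodes of low count. All 7762 were taken as cells before filtering, whereas barcodes of control callus had to pass a cutoff or a test. The 2 callus libraries were thus called differently, and empty droplets of at least 500 UMIs may remain in GC callus. Cells were clustered without the 8 collagens and their partner genes, and clusters were named from fixed marker lists. The callus classes were endothelial-like (10 of 10 markers), pericyte-like or smooth muscle-like (7 of 7), stromal-like or tendon-like (12 of 17), osteoblast-like or osteocyte-like (6 of 8), chondrocyte-like (9 of 9 in each cluster), hypertrophic chondrocyte-like (6 or 7 of 7) and several blood classes, and the suffix is left out from here on. The vessel and stromal classes were small, with 52 and 82 endothelial cells, 16 and 20 pericytes, and 74 and 70 stromal cells in control and GC callus. Of those pericytes, 11 and 13 had at least 2 UMIs of the pericyte markers. Cells in clusters that no marker list named made up 10.0% of control callus and 35.0% of GC callus, among them a cluster with 4 control and 750 GC cells (cluster 23, led by Serpinh1, Col1a1 and Col1a2). The authors' own cell labels were not used here.

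All 8 genes are protein-coding, and positions are on mm10. Col4a1 (chr8:11198423-11312826, minus strand) and Col4a2 (chr8:11312805-11449287, plus strand) stand head to head and overlap by 22 bases. Col6a1 (chr10:76708792-76726168) and Col6a2 (chr10:76595762-76623630) lie on the minus strand of 1 chromosome, 85161 bases apart, and Col18a1 (chr10:77052178-77166548) is on the same strand. Col6a3 (chr1:90765923-90843971) and Col8a1 (chr16:57624258-57754737) are also on minus strands, and Col15a1 (chr4:47208161-47313167) is on the plus strand. Since the type VI chains varied together across the callus and Col8a1 had a pattern of its own, the stretches before their starts are shown, as given by RefSeq for GRCm38.p6, 5′ to 3′ on the minus strand and ending outside the annotated genes. Capitals mark GC boxes (GGGCGG, or CCGCCC on the other strand). The stretches are chr10:76726169-76726294 for Col6a1, chr10:76623631-76623880 for Col6a2, chr1:90843972-90844221 for Col6a3 and chr16:57754738-57754987 for Col8a1.
Col6a1: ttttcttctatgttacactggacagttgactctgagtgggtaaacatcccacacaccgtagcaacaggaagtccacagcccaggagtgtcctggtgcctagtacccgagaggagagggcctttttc
Col6a2: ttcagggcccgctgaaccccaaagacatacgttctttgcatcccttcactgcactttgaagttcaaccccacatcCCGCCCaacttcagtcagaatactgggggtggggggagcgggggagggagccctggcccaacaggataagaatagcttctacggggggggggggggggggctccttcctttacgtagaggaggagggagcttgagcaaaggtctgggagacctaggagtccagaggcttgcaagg
Col6a3: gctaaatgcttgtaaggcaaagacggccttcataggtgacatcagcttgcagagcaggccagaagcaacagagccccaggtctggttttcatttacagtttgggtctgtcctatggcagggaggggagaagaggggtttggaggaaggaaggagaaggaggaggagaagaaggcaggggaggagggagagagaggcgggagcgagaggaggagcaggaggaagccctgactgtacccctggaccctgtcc
Col8a1: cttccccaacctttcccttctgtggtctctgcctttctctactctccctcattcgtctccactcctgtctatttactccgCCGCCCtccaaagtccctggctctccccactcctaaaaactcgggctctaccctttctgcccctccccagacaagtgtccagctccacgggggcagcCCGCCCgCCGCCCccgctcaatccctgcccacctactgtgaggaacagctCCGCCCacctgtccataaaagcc
The Col8a1 stretch held 4 GC boxes, the Col6a2 stretch held 1, and the Col6a1 and Col6a3 stretches held none. Over all 32851 RefSeq windows of 250 bases, 32.7% held a GC box, 33.8% a CCAAT box, 12.4% TATAAA, 4.46% the AP-1 site TGACTCA and 16.1% the glucocorticoid receptor hexamer AGAACA, searched on both strands. The longer glucocorticoid response element, in which that hexamer is followed by any 3 bases and TGTTC, was in 0.0304%. No window of any of the 8 genes held AGAACA or TATAAA, and CCAAT was in windows of Col4a1, Col4a2 and Col18a1. TGACTCA was found for Col6a1 alone among the 8, closer to the RefSeq start than the stretch shown. These are matches of letters and say nothing of binding.

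Expression is given in CPM, the usual depth-scaled count, here the UMIs of a gene over all UMIs of its class. By it a gene can be compared across classes and libraries, but not with another gene, since how well each gene is captured was not measured. Type IV collagen marked the vessel classes. Col4a1 reached 4819 CPM (4612 to 5033) in control endothelial cells and 3944 CPM (3761 to 4133) in GC. In pericytes it stood at 3101 CPM (2812 to 3412) in control and 4531 CPM (4144 to 4944) in GC, so the order of the 2 classes differed between the libraries, beyond counting error in each. It was far lower in stromal cells, at 252 and 89.5 CPM, and in chondrocytes, at 7.98 and 8.72 CPM. Col4a2 followed the same order in control, with 2041 CPM (1907 to 2182) in endothelial cells and 1167 CPM (992 to 1363) in pericytes. In GC its levels in these classes, 1972 CPM (1843 to 2107) and 1767 CPM (1529 to 2032), had overlapping intervals. After every cell had been thinned to 1000 UMIs, Col4a1 was detected in 86.0% of control and 94.6% of GC endothelial cells (96.2% and 97.6% unthinned). In B cells, which should lack it, the thinned shares were 0.169% and 0.287% (0.321% and 0.509% unthinned). Median depths were 4400.5 and 4695.5 UMIs in endothelial cells and 1918.5 and 1681 UMIs in B cells.

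Col18a1 was the only member with its highest control level in pericytes, 1174 CPM (999 to 1371) against 829 CPM (744 to 920) in endothelial cells. In GC the values were 834 CPM (673 to 1022) and 561 CPM (494 to 635), so pericytes led in both libraries. Stromal cells had 204 and 123 CPM, and every other named callus class stayed under 11 CPM. Col15a1 was highest in endothelial cells, at 751 CPM (670.3 to 838) in control and 549.8 CPM (483 to 623) in GC. Pericytes followed with 192 and 197 CPM and stromal cells with 103 and 156 CPM. The GC values of those classes, with intervals of 124 to 299 CPM and 129.8 to 185 CPM, did not differ beyond counting error. Col15a1 was also present at low level outside the vessel wall, at 15.4 and 21.9 CPM in chondrocytes, 11 and 25.3 CPM in osteoclasts, and 11.5 and 22 CPM in neutrophils, whereas B cells had 0 UMIs in both libraries, which allows up to 2.92 CPM in control and 5.42 CPM in GC. The empty droplets of control callus held 11.6 CPM of Col15a1.

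**Figure D1:**
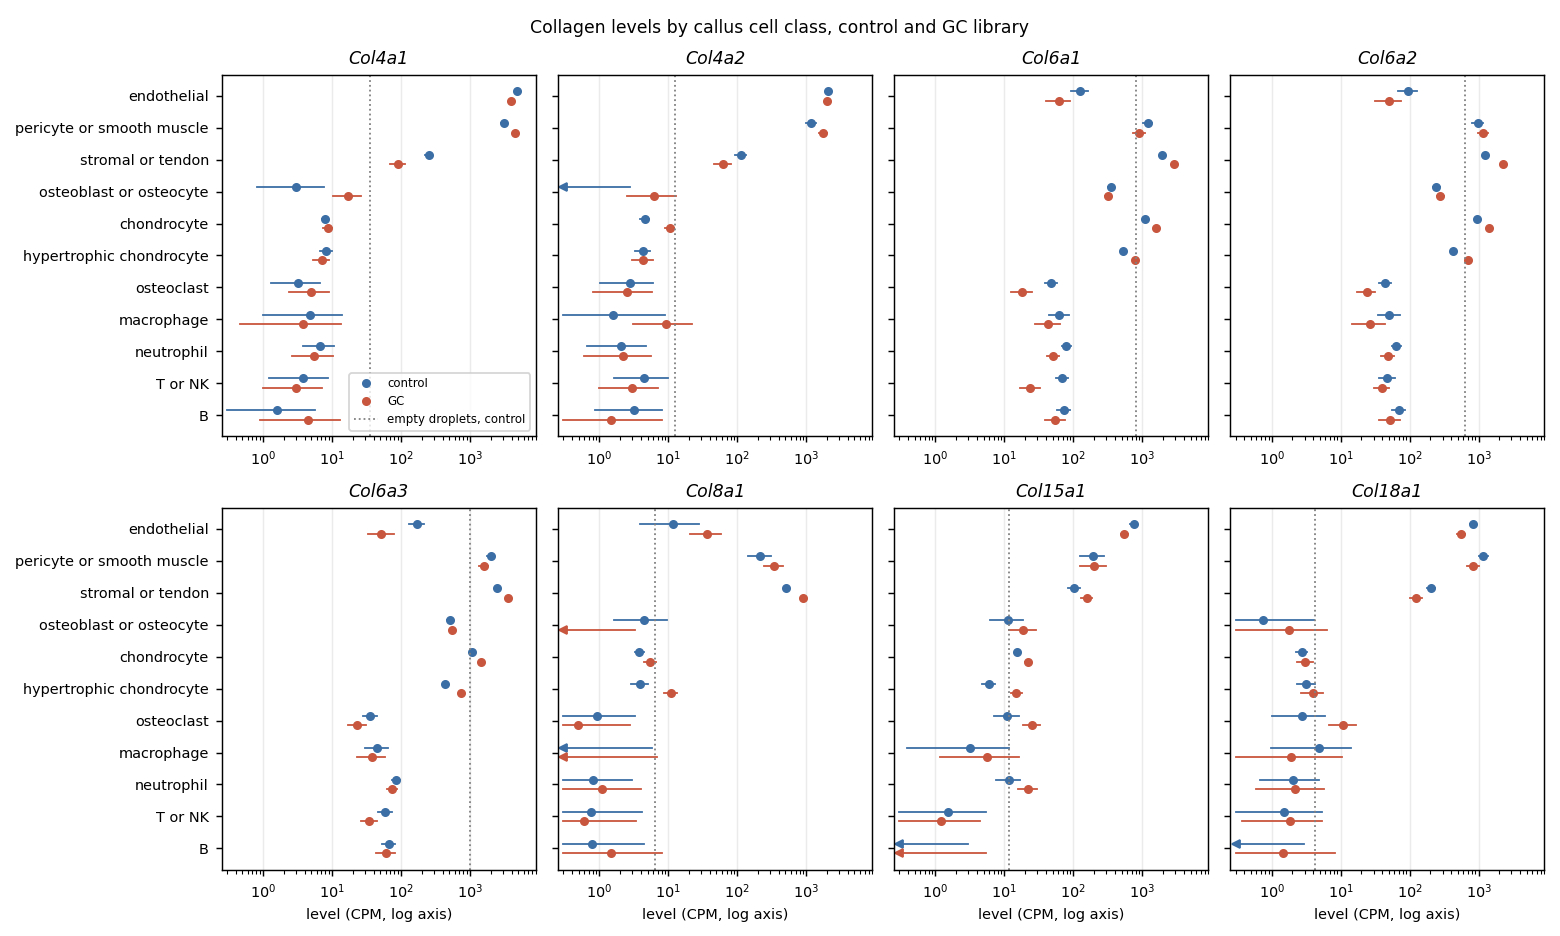
Levels of the 8 collagens (CPM, log axis) in callus cell classes, with a point for the control library and 1 for the GC library, bars for 95% counting intervals, arrows for classes with 0 UMIs, and a dotted line for the empty droplets of control callus. Col4a1, Col4a2, Col15a1 and Col18a1 are highest in the endothelial and pericyte classes, Col8a1 in the stromal class, and the type VI chains are spread over stromal, pericyte and cartilage classes.

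Col8a1 was highest in stromal cells and not in endothelium. Stromal cells held 516 CPM (474 to 561) in control and 911 CPM (846 to 979) in GC. Pericytes held 214 CPM (143 to 308) and 341 CPM (241 to 468). Endothelial cells had 11.8 and 36.1 CPM, from 5 and 16 UMIs, and chondrocytes 3.82 and 5.40 CPM, beside 6.33 CPM in the empty droplets. Thinned to 1000 UMIs, 30.1% of control and 44.9% of GC stromal cells carried a Col8a1 UMI (73.0% and 81.4% unthinned), against 0% and 0.287% of B cells. The stromal class supplied 58.8% and 56.7% of all Col8a1 UMIs of callus cells although it held 1.11% and 1.02% of the cells.

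The type VI chains were shared between connective tissue and cartilage. Col6a1, in control and GC callus, stood at 1924 and 2852 CPM in stromal cells, 1189 and 906 CPM in pericytes, 1077 and 1595 CPM in chondrocytes, 531 and 792 CPM in hypertrophic chondrocytes, and 345 and 321 CPM in osteoblasts. Col6a2 ran from 1231 and 2266 CPM in stromal cells through 939.8 and 1393 CPM in chondrocytes to 245 and 278 CPM in osteoblasts. Col6a3 was highest in stromal cells too, at 2477 and 3539 CPM. Among neighbours in the control order, pericytes and chondrocytes did not differ beyond counting error for Col6a1 (1012 to 1387 CPM against 1067 to 1086 CPM), while for Col6a3 pericytes were higher (1763 to 2246 CPM against 1050.0 to 1069 CPM). Osteoblasts lay under hypertrophic chondrocytes for Col6a1 and Col6a2 but above them for Col6a3 in control, at 505 CPM (468 to 545) against 435 CPM (424 to 446), and under them in GC, at 554 CPM (511 to 599) against 731 CPM (713 to 749). An unnamed cluster led by Ecrg4, Col5a2 and Col1a2 (cluster 16, 43 control and 98 GC cells) had more Col6a1 than any named class in control, at 3175 CPM, and 2677 CPM in GC.

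Type VI RNA was also found in empty droplets and in B cells, which bears on its levels in other blood and vessel cells. In control callus the empty droplets held 796 CPM of Col6a1, 639.9 CPM of Col6a2 and 996 CPM of Col6a3, and B cells 72.1, 69.8 and 66.6 CPM. The B cell values in GC were 54.4, 51.4 and 60.2 CPM. B cells held 3.29 Col6a1 UMIs per 100 UMIs of Col2a1, the main cartilage collagen, close to the 2.94 per 100 of the empty droplets and above the 1.68 per 100 of the chondrocytes themselves. Endothelial Col6a1 was 123 CPM (92.0 to 161) in control, above the B cells (58.1 to 88.6). Of those 52 UMIs, 15 lay in 1 cell with 54 endothelial and 55 pericyte marker UMIs. Without that cell the level was 90.4 CPM from 37 UMIs, too near the B cells to be called above them. In GC it was 60.8 CPM (40.1 to 88.5) and did not differ from B cells (38.3 to 74.9) beyond counting error. Thinned shares of chondrocytes with a Col6a1 UMI were 59.5% and 74.6% (99.1% and 98.3% unthinned, median depths 26367 and 21886 UMIs), against 6.78% and 6.02% of B cells (13.6% and 7.38% unthinned).

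The cells that supplied most UMIs differed between the chains. Endothelial cells gave 61.2% of Col4a1 UMIs in control callus cells and 51.4% in GC, with 12.6% and 14.8% from pericytes. For Col18a1 the endothelial shares were 37.1% and 35.9%, with 23.6% and 14.4% from stromal cells. Chondrocytes gave 76.4% and 54.9% of Col6a1, 78.6% and 55.9% of Col6a2 and 75.8% and 47.7% of Col6a3. The unnamed clusters, which were larger in GC, gave 7.04% and 28.0% of Col6a1. Chondrocytes also gave 47.9% and 27.7% of Col15a1, at the low levels given above.

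Across 18 callus classes of at least 15 cells, with both libraries summed, the members fell into like pairs and groups. These correlations of log2(CPM + 5) describe classes that share libraries, depth and free RNA. Col4a1 and Col4a2 had a Pearson r of 0.99, Col18a1 had 0.98 with each of them, and Col15a1 had 0.93 with Col4a1. The 3 type VI chains had r of 0.99 with one another but 0.49 to 0.55 with Col4a1. Col8a1 lay between, at 0.78 with both Col4a1 and Col6a3, and among the members was closest to Col18a1, at 0.85. Among 12435 genes, the 3 most like Col4a1 were Col4a2, Prickle2 and Adgra2, a receptor of endothelial cells and pericytes, and the same pair stood beside Col4a2. The closest to Col18a1 after Col4a2 and Col4a1 was Fbln5, an elastic fibre protein (0.98). Col6a1 was most like Col6a2, Islr and Col6a3, Col6a2 like Loxl2, Col6a3 and Col12a1, and Col6a3 like Col12a1, Col3a1 and Postn, matrix genes of tendon and periosteum. Col8a1 was most like Nfatc4, Ebf2 and the laminin gene Lama2 (0.99, 0.97 and 0.97), and Col15a1 like Prrg1, Cdh13 and Tfpi2 (0.97, 0.95 and 0.95).

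The proportion between partner chains varied by class. Per UMI of Col4a1 there were 0.424 of Col4a2 (0.391 to 0.459) in control and 0.50 (0.461 to 0.543) in GC endothelial cells, 0.376 and 0.39 in pericytes, and 0.568 (0.477 to 0.674) and 1.20 (0.974 to 1.48) in chondrocytes, where both chains were at 4.53 to 10.4 CPM. Per UMI of Col6a1 there were 0.873 of Col6a2 in chondrocytes of both libraries, but 0.64 (0.597 to 0.686) in control and 0.795 (0.747 to 0.845) in GC stromal cells. Col6a3 per Col6a1 was 0.984 and 0.911 in chondrocytes, 1.29 and 1.24 in stromal cells, 1.46 and 1.72 in osteoblasts, and 1.68 and 1.73 in pericytes, so osteoblasts and pericytes had more Col6a3 for their Col6a1 than chondrocytes had. In thinned cells, Col4a1 and Col4a2 were found together in 72.6% of 124 endothelial cells and 47.2% of 36 pericytes. Col6a1 and Col6a2 were found together in 42.4% of 2538 chondrocytes.

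GC was then set against control within each callus class. A gene was counted where the class held at least 50 UMIs of it over both libraries and its log2(CPM + 5) differed by at least 1, which understates the change of low genes. Among endothelial cells, pericytes, stromal cells, osteoblasts and both cartilage classes, 2 values of members passed this 2-fold threshold, Col4a1 in stromal cells and Col6a3 in endothelial cells, both lower in GC. Among blood classes, type VI chains passed in osteoclasts, T or NK cells and mast cells or basophils, also lower in GC and described below. Over all callus cells no member passed, where 0.238% of 15124 genes were higher and 0.291% lower in GC, and the largest differences were those of Col8a1 (12 and 23.4 CPM, log2 0.74) and Col4a2 (18.4 and 32.5 CPM, log2 0.68). The median of the 8 members over all callus cells was 0.43, and of all genes 0.03.

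In endothelial cells, 7 of 8 members could be compared and their values in GC were below control, with a median log2 ratio of -0.56 against -0.01 for all genes, though only Col6a3 passed 2-fold, beside 1.99% of 3210 genes lower and 1.34% higher. Col4a1 in GC was 0.818 times the control level (0.767 to 0.873), Col4a2 was 0.966 times (0.878 to 1.06), Col15a1 0.732 times (0.617 to 0.868) and Col18a1 0.677 times (0.573 to 0.799). The interval of Col4a2 includes no difference, and its log2 ratio turned from -0.05 to 0.20 with the mean over cells. That of Col4a1 shrank from -0.29 to -0.07 with the mean over cells. That of Col15a1 turned from -0.45 to 0.24 with cells thinned to 1000 UMIs. Col6a1 was 123 and 60.8 CPM and Col6a2 94.7 and 49.6 CPM. Col6a3 fell from 168 CPM to 51.8 CPM, a log2 ratio of -1.61, but 47 of its 71 control UMIs came from 1 cell that also carried 55 pericyte marker UMIs and 54 endothelial marker UMIs. Without the cell with the most UMIs in each library the levels were 58.6 and 44.3 CPM (log2 -0.37), close to the B cell levels. Col6a1, treated in the same way, was 90.4 and 39.6 CPM from 37 and 17 UMIs (log2 -1.10), past 2-fold. Its GC level then lay under that of B cells (54.4 CPM). Pericyte markers summed to 1305 CPM (551 UMIs) in control and 415 CPM in GC endothelial cells, all 7 of them present in both libraries. Of the control sum, 436 UMIs lay in 1 cell, not the Col6a3 cell, which also held 52 of the 350 control Col18a1 UMIs. Without the cell with the most UMIs in each library, Col18a1 was 0.718 times the control level (0.603 to 0.855). The part of pericyte markers in the Col6a3 and Col18a1 values was not tested further.

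In pericytes no member passed 2-fold, where 4.56% of 767 genes were higher and 9.52% lower. Type IV levels were above control in GC, with Col4a1 at 1.46 times (1.28 to 1.67) and Col4a2 at 1.52 times (1.22 to 1.88), whereas Col18a1 was at 0.711 times (0.544 to 0.924) and Col6a3 at 0.788 times (0.647 to 0.956). Without the cell with the most UMIs in each library Col4a1 was at 1.47 times (1.27 to 1.71), Col4a2 at 1.48 times and Col18a1 at 0.671 times. With cells over the UMI cutoff alone, the log2 ratio of Col6a3 turned from -0.34 to 0.35 and that of Col6a1 from -0.39 to 0.71. GC callus had no cutoff, so this setting kept only control cells over theirs but all GC cells, an unlike filter. With the mean over cells the log2 ratio of Col6a3 was 0.27 and that of Col8a1 turned from 0.66 to -0.06. That of Col18a1 shrank from -0.49 to -0.06 in the same setting. The pericyte marker sum was itself higher in GC, 7406 and 10282 CPM.

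**Figure D2:**
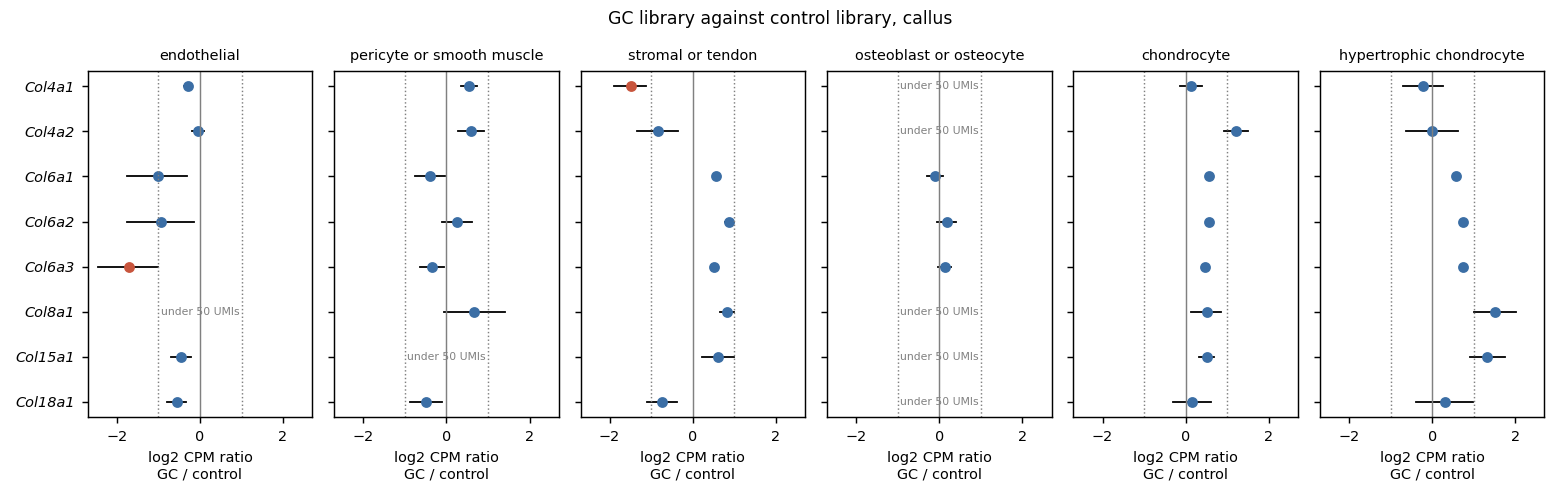
Log2 of the GC CPM over the control CPM for each collagen in 6 callus classes, with 95% counting intervals; red points passed 2-fold on log2(CPM + 5), dotted lines mark 2-fold without the added 5 CPM, and collagens with under 50 UMIs have no point. Col4a1 in stromal cells and Col6a3 in endothelial cells are the red points, and the type VI chains lie right of 0 in stromal cells, chondrocytes and hypertrophic chondrocytes.

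Stromal cells showed members on both sides. Col4a1 was the 1 member of 8 past 2-fold, lower in GC at 252 and 89.5 CPM (log2 -1.44), where 1.92% of 5198 genes were lower and 1.12% higher. Col4a2 was 0.555 times the control level (0.393 to 0.776) and Col18a1 0.601 times (0.47 to 0.764). In contrast, Col6a1 was 1.48 times (1.40 to 1.57), Col6a2 1.84 times (1.72 to 1.98), Col6a3 1.43 times (1.36 to 1.51) and Col8a1 1.76 times (1.58 to 1.97) the control level, none of them past 2-fold. Col15a1 was also above control, at 103 and 156 CPM (log2 0.58, or 0.19 with the mean over cells), not past 2-fold. The member median was 0.54 and that of all genes -0.04. The stromal Col4a1 of control came mainly from 1 cell, which held 193 of 275 UMIs together with 97 pericyte marker UMIs and 17 endothelial marker UMIs, and 47 of the 73 GC UMIs were in 1 cell with 47 pericyte marker UMIs. Without these cells Col4a1 was 80.0 and 32.9 CPM (log2 -1.16). The same control cell held 72 of 123 Col4a2 UMIs and 60 of 223 Col18a1 UMIs. Without the cell with the most UMIs in each library, Col4a2 was 0.738 times the control level (0.451 to 1.19), which includes no difference. Col18a1 was then 0.633 times the control level (0.478 to 0.832) and Col15a1 1.925 times (1.43 to 2.60). Without all stromal cells that had at least 2 vessel marker UMIs, too few Col4a1 UMIs remained for a comparison, and the log2 ratio was -0.11 with at most 5% mitochondrial UMIs and -0.06 with at least 500 genes per cell. Pericyte markers in the stromal class summed to 233 CPM in control and 157 CPM in GC. The type VI and Col8a1 values rested on many cells, with no cell holding more than 19.1% of a chain's UMIs in a library.

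**Figure D3:**
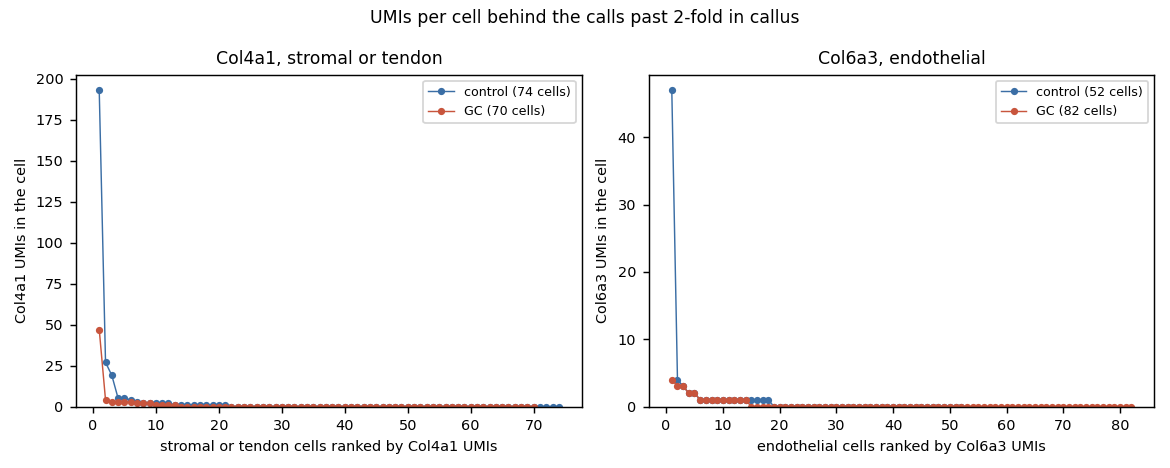
UMIs of Col4a1 in each stromal cell and of Col6a3 in each endothelial cell of callus, cells ranked from high to low, for the control and GC libraries. The highest control cell holds 193 Col4a1 UMIs and 47 Col6a3 UMIs, and nearly all other cells hold few or none.

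In cartilage, all 3 type VI chains stood above control in GC without passing 2-fold. Chondrocytes had 1077 and 1595 CPM of Col6a1, 939.8 and 1393 CPM of Col6a2 and 1059 and 1453 CPM of Col6a3, or 1.48 (1.46 to 1.5), 1.48 (1.46 to 1.5) and 1.37 times (1.35 to 1.39) the control level. No member passed 2-fold, where 0.181% of 12702 genes were higher and 0.583% lower. The median log2 ratio of the 8 members was 0.43, against -0.01 for all genes. Those of Col4a1 and Col18a1, at 0.08 and 0.06, had intervals that include no difference and turned to -0.29 and -0.23 with the B cell CPM taken off. Hypertrophic chondrocytes had 1.49, 1.66 and 1.68 times the control levels of Col6a1, Col6a2 and Col6a3, with a member median of 0.65 against 0.04 and no member past 2-fold (0.38% of 10791 genes higher, 0.297% lower). The mix of clusters in this class differed between the libraries, with 299 control and 117 GC cells in cluster 2, 195 and 84 in cluster 3, 77 and 174 in cluster 4, and 72 and 115 in cluster 14, which had the highest type VI levels. The class ratios hold both that shift and the differences within clusters given below. Cluster 14 met 7 of 7 markers of the class but was led by Ibsp, Col1a1 and Col1a2. Unlike clusters 2, 3 and 4, it had no Col10a1 among its 10 leading genes, so its place in cartilage is uncertain. With cells of at least 500 genes alone, the 3 log2 ratios shrank to 0.02, 0.14 and 0.14. The vessel collagens were scarce in cartilage: Col4a2 was 4.53 and 10.4 CPM in chondrocytes, a raw ratio of 2.31 (1.89 to 2.81) whose log2 value after 5 CPM were added was 0.70, and its thinned share of cells was 0.481% in control and 0.457% in GC. Col8a1 and Col15a1 in hypertrophic chondrocytes, at 3.83 and 10.8 CPM and 5.92 and 14.9 CPM, were likewise past 2-fold only before the added 5 CPM.

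Clusters differed in this. In chondrocyte cluster 13, Col6a1 was 1253 CPM in control and 2184 CPM in GC. In clusters 21 and 22 it was 1102 and 1696 CPM, and 713 and 1030 CPM. Among hypertrophic clusters, Col6a3 stood higher in GC in clusters 3 (365 and 709.9 CPM), 4 (236 and 328 CPM) and 14 (1494 and 1855 CPM), but lower in cluster 2 (238 and 152 CPM). Unnamed cluster 1, led by Tnfrsf11b, Bmp2, Ibsp and Col10a1 with 72 control and 389 GC cells, had 703 and 595 CPM of Col6a1, and unnamed cluster 16 had 3175 and 2677 CPM. Cluster 23, nearly all of GC, had 1658 CPM of Col6a1 and 2731 CPM of Col6a3. Clusters 1 and 23, which had Col10a1 or Col9a1 among their 10 leading genes, were left unnamed by the naming rule. With both put among the chondrocytes, an alternative chosen after seeing the data, the chondrocyte log2 ratio of Col6a1 went from 0.56 to 0.35 and that of Col6a2 from 0.56 to 0.33.

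**Figure D4:**
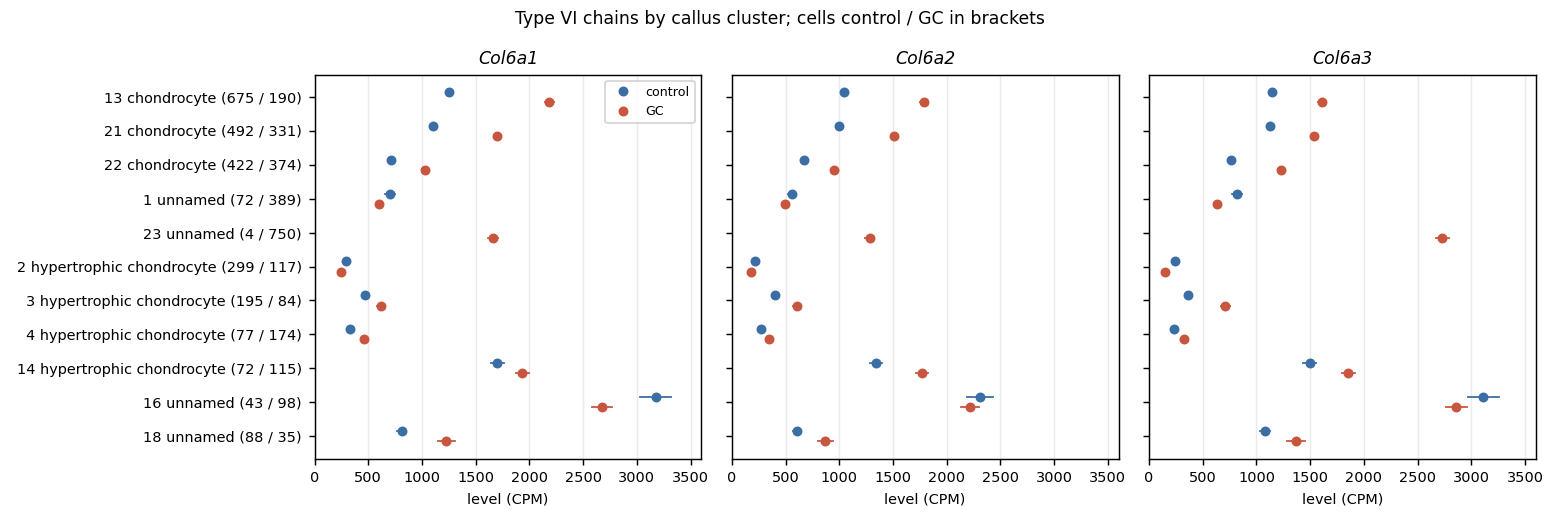
Levels (CPM) of the type VI chains in callus clusters of cartilage and connective tissue, control and GC, with 95% counting intervals and the number of cells in brackets. GC points lie right of control points in clusters 13, 21, 22, 3, 4, 14 and 18 and left of them in clusters 1, 2 and 16, and control is not drawn for cluster 23, which has 4 control cells.

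Osteoblasts allowed a comparison of the type VI chains alone. Col6a1 was 0.93 times the control level (0.809 to 1.07), Col6a2 1.13 times (0.968 to 1.33) and Col6a3 1.10 times (0.982 to 1.22), all with intervals that include no difference, where 1.0% of 5079 genes were higher and 1.38% lower. Col4a1 had 4 UMIs in control osteoblasts and 19 in GC, and 13 of the 19 were in 1 cell with 7 endothelial marker UMIs. Blood classes were compared in the same way. In osteoclasts Col6a1 was lower in GC past 2-fold, at 47.7 and 17.9 CPM (log2 -1.20), beside 1.05% of 6978 genes lower and 0.76% higher, but both values lie under those of B cells in the same library. In mast cells or basophils (56 and 31 cells) Col6a1, Col6a2 and Col6a3 were all lower in GC past 2-fold, from 72.4, 67.2 and 60.8 CPM to 8.57, 20.0 and 17.1 CPM (7.01% of 3523 genes lower, 1.19% higher). In T or NK cells Col6a1 was lower, at 69.1 and 23.6 CPM (1.86% of 6027 genes lower, 0.614% higher). These control values were near those of B cells and these GC values under them, and no member passed in B cells, neutrophils or macrophages. Osteoclast Col15a1 was 11 and 25.3 CPM (24 and 51 UMIs, log2 0.92).

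The partner genes of these collagens, listed with earlier results of these data known, mostly kept within 2-fold. In chondrocytes 12 of 16 basement membrane partners, 11 of 11 receptors, 10 of 10 assembly genes, 6 of 6 proteases and their inhibitor and 2 of 8 other chains could be compared, and none passed 2-fold. Hspg2, which encodes perlecan, was 949 and 888 CPM and the collagen chaperone Serpinh1 1826 and 1921 CPM. Cspg4, a receptor for type VI collagen, was 628 and 561 CPM, while the crosslinking enzyme Lox was 625 and 1039 CPM (log2 0.73). In endothelial cells none of the 8 partners, 5 receptors, 7 assembly genes and 4 proteases passed. There Hspg2 was 1092 and 854 CPM, Nid1 609 and 563 CPM, and the integrin genes Itgb1 989.9 and 1406 CPM and Itga1 147 and 214 CPM.

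In stromal cells Lama2, a laminin chain, rose from 22.9 to 69.9 CPM (log2 1.43) and Loxl2, a crosslinking enzyme, from 198 to 454 CPM (1.18), whereas Mmp9, which degrades type IV collagen and is also a marker of osteoclasts, had 105 UMIs in control and 0 in GC. Mmp9 also fell in hypertrophic chondrocytes, from 36.5 to 9.76 CPM (log2 -1.49), and rose in osteoblasts, from 17.1 to 41.7 CPM (1.08). How the Mmp9 UMIs of these classes were spread over single cells was not tested. The protease inhibitor Timp3 fell in osteoblasts from 690.0 to 248.5 CPM (log2 -1.46), and the laminin chain Lamb2 in pericytes from 310.1 to 98.7 CPM (-1.60). Of the remaining chains of these collagen types, only Col4a5 and Col8a2 had enough UMIs in chondrocytes (9.04 and 18.5 CPM, and 15.3 and 14.7 CPM), and in stromal cells Col8a2, which can assemble with the Col8a1 chain, was 157 and 134 CPM.

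Trabecular bone held few cells that express these genes, with 445 member UMIs in the control library and 410 in GC over all barcodes. A stromal class of 17 control and 44 GC cells (11 to 14 of 17 markers in its clusters) carried most of them, and no endothelial or pericyte class formed. In the stromal cells Col6a1 fell from 688 CPM (549.9 to 849) to 171 CPM (125 to 227), Col6a2 from 576 CPM (450.4 to 725) to 138 CPM (97.6 to 189), and Col6a3 from 624 CPM (493 to 778) to 149 CPM (107 to 202). Their log2 ratios were -1.98, -2.02 and -2.03, so 3 of the 6 members with enough UMIs were past 2-fold, where 7.93% of 1211 genes were lower and 7.76% higher. Both clusters of the class showed the direction, with Col6a1 at 485 and 151 CPM in cluster 32 (11 and 34 cells) and at 929.97 and 211 CPM in cluster 33 (6 and 10 cells). Over all trabecular cells no member passed 2-fold (0.486% of 12133 genes higher, 0.569% lower), with Col6a1 at 2.62 and 1.29 CPM. Fewer stromal cells of a kind rich in these chains and less RNA in each cell cannot be told apart between libraries with so few cells.

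The other members of trabecular stromal cells varied in their own ways. Col4a1 was 368 and 334 CPM, 0.908 times the control level (0.631 to 1.32), Col4a2 192 and 149 CPM and Col8a1 128 and 127 CPM. Col15a1 had 25 UMIs in control and 5 in GC (199.9 and 18.2 CPM), under the minimum for a comparison. Col18a1 had 5 UMIs in control and 1 in GC. Vessel markers were present in this class: 4 control and 8 GC cells had at least 2 endothelial marker UMIs, and pericyte markers summed to 2 UMIs in control, from 1 of 7 genes, and to 402 UMIs in GC, from all 7, with 3 cells holding at least 2. In the cells with under 2 endothelial marker UMIs, Col4a1 was 378 CPM (276 to 506) and 290.1 CPM (227 to 365) and Col4a2 160 CPM (96.0 to 249.1) and 84.6 CPM (52.4 to 129). By cluster, Col4a2 in GC was 1.68 times the control level (0.728 to 4.51) in cluster 32 and 0.335 times (0.132 to 0.794) in cluster 33. Leaving out the cell with the most UMIs in each library moved the log2 ratio of Col4a1 from -0.14 to 0.45. Partner genes that passed 2-fold here were all lower in GC: Nid1 (456 and 218 CPM), Hspg2 (416 and 185 CPM), the receptor Antxr1 (344 and 109 CPM) and Mmp2 (903 and 352 CPM). Among trabecular blood cells, B cells had 0 UMIs of all 8 members, and the highest values were those of Col4a2 in 24 control hematopoietic progenitors (9 UMIs, 20.2 CPM).

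**Figure D5:**
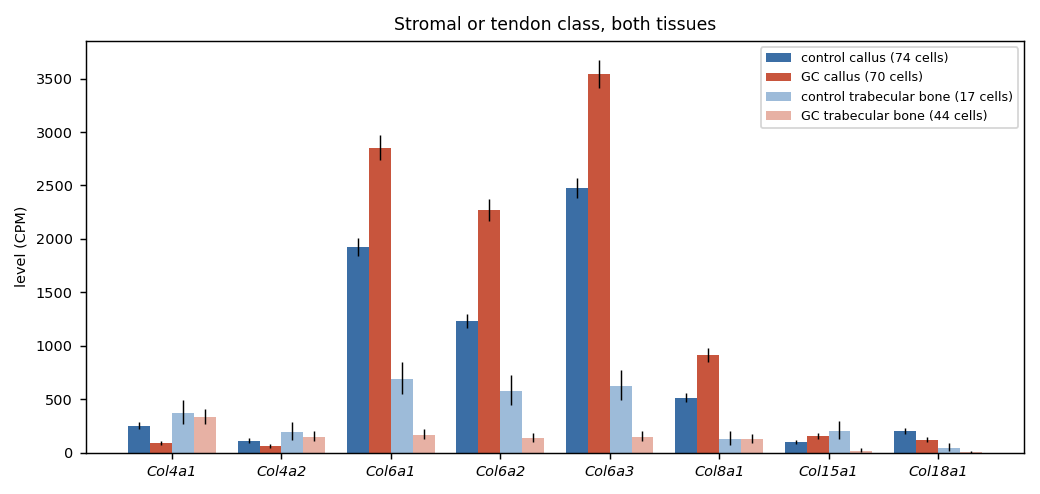
Levels (CPM) of the 8 collagens in the stromal or tendon class of both tissues, with bars from 0, error bars for 95% counting intervals and cell numbers in the key. Type VI bars are taller in GC than in control callus and shorter in GC than in control trabecular bone.

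Callus and trabecular bone were compared within each treatment. Over all cells, all 8 members were past 2-fold higher in callus in control (log2 1.63 to 6.79), where 17.4% of genes were higher and 9.5% lower, and all 8 in GC (log2 1.72 to 7.46), where 19.2% were higher and 8.99% lower. Col6a3 had the largest ratio, at 808 and 2.35 CPM in control. These log2 values include the added 5 CPM, which exceeded every trabecular level over all cells and so shrinks them. Without it, the control ratios ran from 15.9 times for Col4a2 to 344 times for Col6a3. Ratios given as times have no added CPM. Within the stromal class of control mice 5 members were higher in callus (16.2% of 3857 genes higher, 7.91% lower), with Col6a1 2.80 times (2.25 to 3.51), Col6a2 2.14 times, Col6a3 3.97 times, Col8a1 4.04 times and Col18a1 5.11 times (2.16 to 15.9) the trabecular level. Col4a1 was 0.684 times (0.499 to 0.957), Col4a2 0.587 times and Col15a1 0.513 times (0.33 to 0.826) the trabecular level, not past 2-fold. These 3 callus values lean on 1 cell with 97 pericyte marker UMIs. Without it they were 80.0, 49.7 and 75.1 CPM, beside 368, 192 and 199.9 CPM in trabecular bone with all cells kept. The trabecular class also held cells with vessel markers, and their part in the ratios of either treatment was not tested. In GC, 6 members were higher in callus (15.6% of 3408 genes higher), with Col6a1 at 16.7 times and Col6a3 at 23.8 times, while Col4a1 (89.5 and 334 CPM, log2 -1.84) and Col4a2 (62.5 and 149 CPM, log2 -1.19) were lower in callus, beside 8.3% of genes. Tissue, site of the cells and dissociation of each sample cannot be told apart in these comparisons. Those over all cells also hold the mix of cell classes, which differed between the tissues. No chondrocyte class formed in trabecular bone, and stromal cells were 1.11% of control callus cells and 0.454% of control trabecular cells. The part of this mix in the all-cell ratios was not tested.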

How the data were processed

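Libraries were made on the 10x Genomics platform, and the labels' processing notes name mm10, Cell Ranger 5.0.1 and Seurat 3.2.0. The authors deposited 1 matrix for each of 4 libraries, in which each value is a UMI count for a gene and a barcode with no normalization. The 8 genes and the 5 lists with 51 partner genes were chosen with earlier results of these data known. Named genes are the 8 members, partner genes past 2-fold or among the 3 with most UMIs of their list in a class, and the 3 genes most correlated with each member. Genes and clusters named otherwise were chosen after their values were seen.

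Scripts ran in Python 3.11.15. Clustering used leidenalg 0.10.2, igraph 0.11.9 and scikit-learn 1.9.0, intervals scipy 1.17.1, tables pandas 2.3.3 and numpy 2.4.6, and plots matplotlib 3.10.9. In full matrices, barcodes over 10% of the 99th percentile of the top 3000, or with at least 500 UMIs and a profile unlike that of barcodes ranked 45001 to 90000 (Monte Carlo, 10000 draws, adjusted p of at most 0.01), were cells. The GC callus matrix was not full, so all its 7762 barcodes were taken as cells at this step. Cells with under 200 genes or over 10% mitochondrial UMIs and the highest doublet scores (0.8% per 1000 cells) were removed. Each tissue was clustered over both libraries (2000 variable genes, 30 components, 15 neighbors, Leiden resolution 1), without batch correction. Large clusters in which a second class also scored high were first clustered again by themselves. A cluster was named from at least 3 markers of a class. Each had to be at least 2-fold over the median of the other clusters and in at least 10% of cells. It stayed unnamed where another class had more markers among its 10 leading genes or the markers of several lineages were met at once. Clusters of low depth with none of their own markers among the 10 leading genes also stayed unnamed. UMIs were summed by class and library. Levels have exact Poisson intervals and ratios exact conditional intervals, at 95%. Comparisons added 5 CPM and required 50 UMIs and 15 cells in each library. No p-value was computed, since each group is 1 library. Positions are from GENCODE M21 and promoter windows from RefSeq (8 of 8 genes matched). The comparison was tested on simulated counts, drawn as Poisson counts from class sums, the spread that the intervals assume. Such draws do not gather UMIs in single cells, so the test says nothing of values that rest on 1 cell.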

Additional observations from a re-analysis of the deposited data

Results flagged for a closer look

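The type VI chains went in opposite directions in the tissues. In the stromal class, the log2 ratio of GC over control was 0.57 in callus and -1.98 in trabecular bone for Col6a1, 0.88 and -2.02 for Col6a2, and 0.51 and -2.03 for Col6a3. Over all cells it was 0.32 and -0.28 for Col6a1, 0.34 and -0.25 for Col6a2, and 0.40 and -0.27 for Col6a3. These all-cell values also hold the mix of classes, which differed between the libraries. In trabecular bone they are not a separate observation, since stromal cells held 86 of 88 control and 47 of 48 GC Col6a1 UMIs. The trabecular levels over all cells were under the added 5 CPM, as for Col6a1 at 2.62 and 1.29 CPM, which shrinks their ratios. With 1 CPM added in its place, the trabecular log2 ratios were -0.66, -0.64 and -0.67. The difference between the tissues was not tested, since each tissue and treatment has 1 library, and the trabecular values rest on 17 control and 44 GC stromal cells.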

How the results depend on the processing

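Results were recomputed under 18 planned settings and 3 chosen after seeing the data. Of 1025 values of single members, 993 kept their direction, but many of them could not have turned. Another added CPM or UMI minimum cannot change the sign of a ratio, and some settings alter only 1 class. The count is therefore no measure of how firm the directions are. The class with the highest control level of each member was recomputed with the mean over cells, with B cell CPM taken off and with doublets kept. The count of the 8 members that kept their class is not listed as moved, but a small change in it would not be listed. Pericytes gave no GC against control value with doublets kept, so Col18a1 may not have kept them as its leading class there. The counts that moved were these. With 1 CPM added in place of 5, there was 1 member higher in GC in chondrocytes (0 as reported), 2 in hypertrophic chondrocytes (0) and 2 lower in endothelial cells (1). With 20 CPM added, 4 of 8 members stayed past 2-fold higher in callus over all control cells. With at least 20 UMIs, 1 member was higher in osteoblasts (0) and 1 in endothelial cells (0), and with no filter 2, 1 and, lower in trabecular stromal cells, 5 (3). With B cell CPM taken off, 1 was higher in chondrocytes and 3 lower in endothelial cells. With cells thinned to 1000 UMIs, 2 were higher and 0 lower in callus stromal cells (0 and 1), 1 higher in pericytes (0), 0 lower in endothelial cells and 0 in trabecular stromal cells, where too few UMIs remained. The callus stromal count of 1 lower, which is Col4a1, became 0 with the mean over cells, with at most 5% mitochondrial UMIs, with at least 500 genes, with cells over the UMI cutoff alone and, as an alternative chosen after seeing the data, without cells that had vessel marker UMIs. It became 2 with doublets kept and with members kept among the variable genes. Cells over the cutoff alone gave 1 higher in pericytes and 2 lower in endothelial cells, and doublets kept gave 0 lower in endothelial cells. In callus the cutoff setting removed control cells only, since GC callus had no cutoff, so its callus values compare libraries filtered differently. At Leiden resolution 0.5 there was 1 higher in stromal cells and 2 in osteoblasts, at resolution 2 there was 1 in osteoblasts, and with members kept 1. With at least 500 genes, 0 members were lower in callus than in trabecular stromal cells of GC (2). The causes were not tested except where fewer UMIs or cells are named.

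A class did not form, so gave no value, in 6 settings for pericytes, 3 for trabecular stromal cells and 1 for hypertrophic chondrocytes. No paired analysis was possible because each group is 1 library. Cell number limits the pericyte and trabecular stromal classes, with 16 to 44 cells in a library.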

Other observations

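Col4a1 was also found outside the named vessel classes. An unnamed cluster of 1 control and 106 GC callus cells (cluster 26, led by Cxcl12, Ibsp and Col1a1) held 341 CPM of Col4a1 (312 to 372) and 89.9 CPM of Col15a1. A second, of 196 GC cells (cluster 25), held 122 CPM of Col4a1. Its 10 leading genes mixed Ngp, Camp, Elane and Chil3 with Bmp2, Tnfrsf11b, Serpinh1, Dcn, Col9a1 and Tpbg. Whether its barcodes held RNA of more than 1 cell was not tested. Neither has a usable control level, so whether they belong to the treatment or to the library cannot be told apart. Trabecular monocytes held 9 Col4a1 UMIs in 277 control cells and 16 in 284 GC cells (2.16 and 3.78 CPM), and Col18a1 had 5 UMIs in 24 GC megakaryocytes and 0 in 14 control ones.

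Osteoclasts held 6 UMIs of Col18a1 in control and 22 in GC (2.75 and 10.9 CPM, a ratio of 3.97 with an interval of 1.56 to 12), while B cells held 0 and 1. The number of UMIs was too small for the comparison across genes, and the empty droplets of control callus held 4.22 CPM.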
